A study of Drosophila melanogaster with 46 samples.

Results

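The small chromosome 4 of Drosophila melanogaster carried 247 of the 30774 accessible regions that were counted together in eye-antennal imaginal discs, or 0.803% of them. The members were all regions whose position in the count table lies on chromosome 4, so no measured value chose them. They were set against the 25092 regions on the autosome arms 2L, 2R, 3L and 3R. Chromosome 4 is largely heterochromatic, is bound along its length by the proteins HP1 and POF, and recombines little. It nevertheless holds active genes, among them the Pax6 genes ey and toy, which start eye development, and ci, the transcription factor at the end of the Hedgehog pathway. Transposase-accessible chromatin sequencing (ATAC-seq) counts the DNA fragments that a transposase can cut out, so a high count marks open chromatin.

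The libraries came from discs dissected by hand from wandering larvae of inbred DGRP lines, strains derived from wild flies and each with its own fixed genome, for a search for loci that alter accessibility. There were 31 libraries of 23 lines. Of these, 8 lines had 1 library with the suffix IR in its name and 1 without; the labels do not say what IR stands for. The other 15 lines had 1 library each, 7 with the suffix and 8 without it. No label says whether the 2 libraries of a line came from separate animals. The p-values of fits to the counts of each region rest on the spread between such libraries. Those of tests over lines rest on the spread between lines. No markers of the disc could be examined, because regions carry positions in build dm3 and no gene names.

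Library totals ran between 1110755 and 12758783 counts, and chromosome 4 received between 9837 and 89683 of them (median 45326). The first principal component of the libraries, computed without chromosome 4, held 40.1% of the variance. Its scores ran from -69.5 in the DGRP_29651 library to 37.6 in the IR library of DGRP_25208.

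The regions of chromosome 4 lay farther apart than those of the arms. They spanned 1.23 Mb, from chr4:46552-46857 to chr4:1280618-1280990, with 200 regions per Mb, against 260 on the arms. They covered 10.2% of that span, against 14.4% on the arms. Of the 246 gaps between neighbours, 35 were longer than 10000 bp, or 14.2%, against 6.51% on the arms. The widest gap, 38838 bp, separated chr4:110428-110740 from chr4:149578-150031. The next, 36947 bp, separated chr4:341371-341680 from chr4:378627-379565. The regions were close in size to those elsewhere, with a median length of 431 bp on chromosome 4 and 456 bp on the arms. Per gene they were more frequent: RefSeq's Release 6 annotation, a later build whose coordinates were not used, lists 80 protein-coding genes on chromosome 4, or 3.09 regions per gene, against 2.16 on the arms.

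Levels on chromosome 4 spanned a narrower range than those of the arms. Its median level was 31.8 CPM (counts scaled to a common library total) per kb of region, against 30.7 on the arms. Its 10th percentile over regions was 18.8 CPM per kb, against 14.7 on the arms, and its 90th percentile was 93.2, against 103 on the arms. Within each library, the 10th percentile on chromosome 4 was on average 1.39-fold that of the arms, and it was higher in 23 of 23 lines (sign-flip permutation test over lines, two-sided, p = 1e-05, the smallest that 100000 resamples give; adjusted over 4 tests, p = 2e-05). The 90th percentile was on average 0.924-fold that of the arms (permutation p = 0.00038, adjusted p = 0.000507), with 4 of 23 lines higher. The median differed by 0.042 on the log2 scale (permutation p = 0.104). The narrowing was uneven between libraries, and averages over the 2 libraries of a line hide this. In the IR library of DGRP_25208, the log2 of the 90th over the 10th percentile was 2.95 on chromosome 4, against 4.39 on the arms. In the library of DGRP_55031 without the suffix it was 2.84 against 2.69. Chromosome 4 had the wider range in 2 of 31 libraries. The component scores of these 2 named libraries were 37.6 and -64.7, and a relation to that score was not tested.

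**Figure D1:**
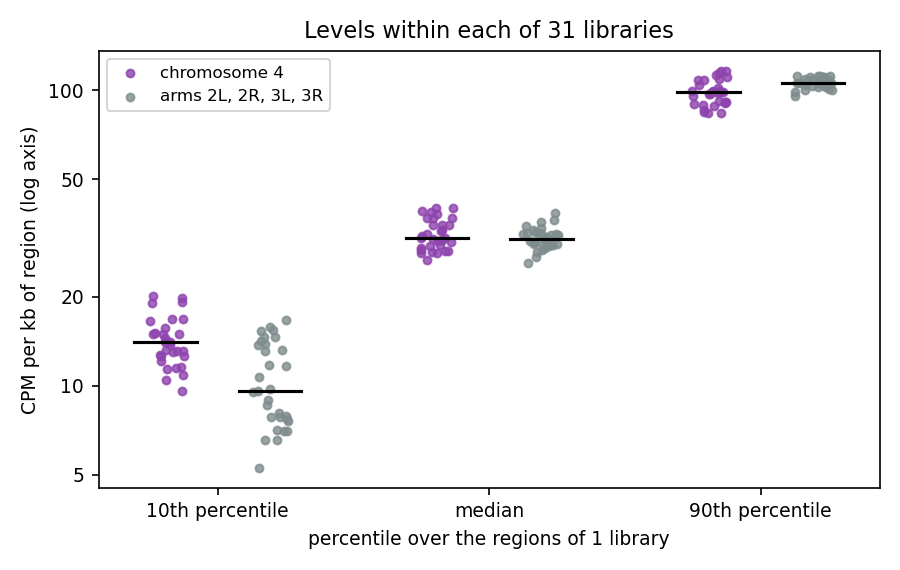
The 10th percentile, median and 90th percentile of CPM per kb over the regions of each library, on a log axis, for chromosome 4 and for arms 2L, 2R, 3L and 3R; each point is 1 of 31 libraries and each bar the median over libraries. The 10th percentiles of chromosome 4 lie between 9.60 and 20.2 CPM per kb, against 5.27 to 16.6 on the arms, and are the higher of the pair in 28 of 31 libraries.

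The stretch between 500 and 600 kb held the largest share of the CPM of the chromosome, 22.3% over 21 regions, with a median of 59.3 CPM per kb. It contained chr4:521994-522632, at 239 CPM per kb the highest of all, and chr4:527411-529448, at 2037 bp the longest, with 204.6 CPM per kb. The other regions among the 5 highest were chr4:724362-725458 with 201, chr4:76795-77327 with 200 and chr4:548039-549146 with 198 CPM per kb. The SD of their line means ran from 0.14 log2 CPM at chr4:724362-725458 to 0.34 at chr4:548039-549146, where the median of the 63 chromosome 4 regions at 5 log2 CPM or more was 0.22. The first 100 kb had the highest median of any bin, 84.0 CPM per kb over 13 regions.

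The 5 lowest regions were chr4:566024-566981 with 10.3, chr4:1280618-1280990 with 10.8, chr4:1175785-1176093 with 11.3, chr4:496238-496561 with 11.5 and chr4:107978-108270 with 12.1 CPM per kb. The low regions included several of the most variable ones, described next. The shortest regions, chr4:718809-719009 and chr4:960991-961191, were 200 bp long and had 27.8 and 16.7 CPM per kb.

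**Figure D2:**
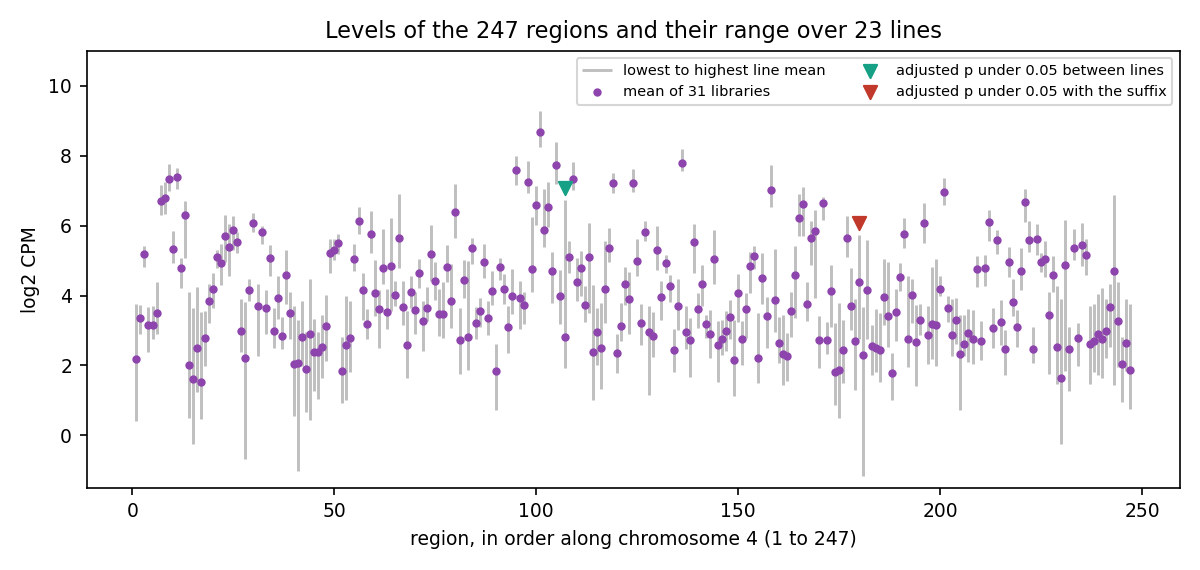
Mean log2 CPM of each of the 247 regions, numbered by their order along chromosome 4, with grey lines from the lowest to the highest of 23 line means; triangles mark the regions with an adjusted p under 0.05. Means run from 1.51 to 8.68, and the long grey lines stand mostly at low regions.

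Per region, chromosome 4 received fewer counts than the arms. The ratio of mean counts per region, chromosome 4 over the arms, had its lowest value, 0.782, in the IR library of DGRP_28262, a median of 0.909, and its highest value, 1.09, in the library of DGRP_25208 without the suffix. It was below 1 in 25 of 31 libraries. Over 23 lines its log2 averaged -0.13 ± 0.10 (SD), below 0 in 21 of 23 lines (sign-flip permutation test, two-sided, p = 1e-05, the smallest possible). The difference was not seen per kb of region, where the mean was -0.024 (permutation p = 0.235), nor with median counts, where it was -0.011 (permutation p = 0.679). It therefore held for the mean count of whole regions and not for their level per length.

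The ratio varied more between libraries on chromosome 4 than on any single autosome arm. The SD of its log2 was 0.13, against 0.017 to 0.034 for each of 2L, 2R, 3L and 3R set against the other arms, and 0.17 for X. Those arms each average more than 5000 regions, and the difference between these SDs was not tested. Within lines with both libraries, the IR library minus the other gave a mean of -0.036 (SE 0.067, n = 8), higher in 3 lines and lower in 5 (exact sign-flip permutation test, two-sided, p = 0.594; the smallest possible is 0.00781).

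Over the 23 lines the ratio fell with the log2 library total (Pearson r = -0.62, permutation p = 0.00167, adjusted p = 0.00445; Spearman rho = -0.48, permutation p = 0.0218, adjusted p = 0.0437). Without DGRP_25208 and DGRP_55031, the lines farthest from the median total, r was -0.32, so the relation rests largely on them. With the ratio of X to the arms, r was 0.044 (permutation p = 0.845, rho = 0.0020, p = 0.995), and -0.30 without the 2 farthest lines. With the component score, r was -0.38 (permutation p = 0.0733, rho = -0.44, p = 0.0366, adjusted p = 0.0586) and -0.42 without the 2 farthest lines. In all 4 relations were computed, with 8 p-values adjusted together. The part of library depth in the ratio was not tested.

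**Figure D3:**
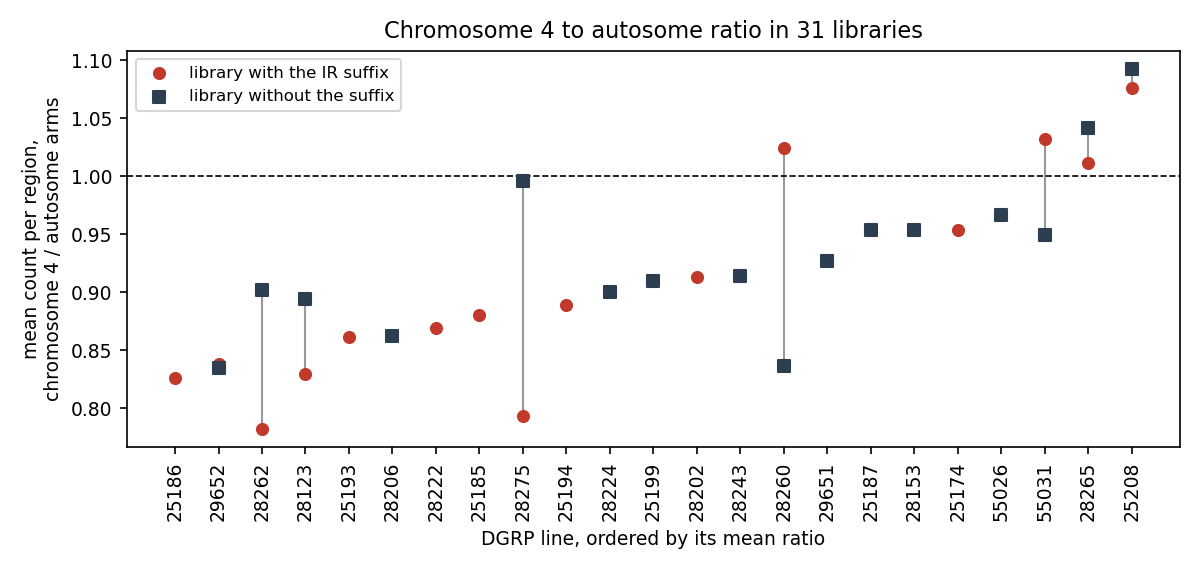
Mean count per region on chromosome 4 over the same mean for the 4 autosome arms, in each of 31 libraries, with the 23 DGRP lines ordered by their mean ratio. Circles are IR libraries, squares are libraries without the suffix, and a grey line joins the 2 libraries of a line; 25 libraries lie below 1.

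The line means of chromosome 4 deviated less from their common mean than those of the arms. For 15 of the 23 lines the line mean is 1 library, so differences between libraries enter it. The median over regions of a line's absolute deviation from the mean of 23 lines averaged 0.221 log2 units on chromosome 4 and 0.256 on the arms, lower on chromosome 4 in 20 of 23 lines (sign-flip permutation test, two-sided, p = 0.00027, adjusted over 4 tests p = 0.00054). With level classes weighted as on chromosome 4, the values were 0.235 and 0.273, lower in 18 of 23 lines (permutation p = 0.00019, adjusted p = 0.00054). Between the 2 libraries of a line the median absolute difference averaged 0.446 on chromosome 4 and 0.478 on the arms (exact permutation p = 0.414, n = 8, 4 lines lower). With level classes weighted, these were 0.466 and 0.519, a difference of -0.054 with 5 of 8 lines lower (exact permutation p = 0.164), against -0.039 for the deviations of the lines. A lowering of that size between libraries of 1 line was thus not separated from that between lines. The range of line means stayed under 2-fold at 68 regions of chromosome 4, or 27.5%, against 15.7% to 20.8% on the other arms and X. At the other end, 8 regions, or 3.24%, had line means more than 16-fold apart, against 2.84% of all regions.

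The joint test between lines, edgeR's quasi-likelihood test with Benjamini-Hochberg adjustment, called 1 of 247 regions, where 0.0942% of all 30773 tested regions passed. Without adjustment, 19 regions of chromosome 4 had p under 0.05, or 7.69%, against 7.68% of all regions, so chromosome 4 stood at the background. Other tools called more: DESeq2 called 15 of 247 regions, where 5.51% of all regions passed, limma voom 17, where 8.41% passed, and edgeR with the first principal component as a covariate 24, where 10.4% passed. Those 3 fits shared 13 regions, the called one among them. Lines with 1 library enter the test on the assumption that they vary as the 8 lines with 2 do.

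The region that passed was chr4:566024-566981 (edgeR, adjusted p = 0.0259), which had the lowest CPM per kb of the chromosome. It had 398 counts and 6.73 log2 CPM in DGRP_25185. In the other 22 lines, the line means ran from 1.93 in DGRP_29651, with a median of 2.67, to 4.75 in DGRP_25199. DGRP_25185 thus stood above all other lines, and DGRP_25199 above the rest. Set against the other lines, DGRP_25185 was higher by 3.77 log2 units (edgeR, adjusted p = 0.000361). DGRP_25185 has 1 library, and 279 of all 30773 regions set it apart from the other lines. Above a mean count of 50 these were 10 of 21758, chr4:566024-566981 among them. The 16 libraries of the 8 paired lines were left out in turn. The joint call was lost in 14 of 16 fits (edgeR, adjusted p from 0.0508 to 0.0948) and kept without either library of DGRP_28260. Over all regions those 14 fits called 0 to 25, against 29 in the full fit and 41 without either library of DGRP_28260. In the 16 libraries alone, which hold neither DGRP_25185 nor DGRP_25199, the edgeR adjusted p of chr4:566024-566981 was 0.858.

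The next 4 regions by p did not pass in this fit, and all 4 passed with DESeq2, with limma voom and with the component as a covariate. In edgeR's fit of the 16 libraries of the paired lines, 3 of them passed, with adjusted p = 0.0124 at chr4:1272168-1272764, 0.0269 at chr4:1275840-1276474 and 0.0341 at chr4:204086-204436. At chr4:1272168-1272764 (edgeR, adjusted p = 0.0566) the line means ran from 1.43 log2 CPM in DGRP_28224, with 11 counts, to 6.87 in DGRP_28243, with 899 counts, the widest range on the chromosome. DGRP_25193 was also low there, at 1.79, and DGRP_28202, DGRP_28265 and DGRP_28275 were high, at 6.73, 6.51 and 6.42. The 2 libraries of DGRP_28265 had 6.66 with the suffix and 6.37 without it, and those of DGRP_28275 had 6.41 and 6.43. The libraries of DGRP_28265 and of DGRP_28275 thus lay close together at this region, while those of DGRP_28262 differed, with 4.25 and 5.64. The region was chosen by its small p between lines, which itself favours close libraries and distant lines.

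Near the same end of the chromosome, chr4:1275840-1276474 (adjusted p = 0.0988 by edgeR) had line means from 1.96 in DGRP_28260 to 4.40 in DGRP_25185. At chr4:452543-452935 (adjusted p = 0.0913 by edgeR), DGRP_28243 had 243 counts and 4.99 log2 CPM, and the line means of the others ran from 1.86 to 4.38, so that it stood above them all. At chr4:204086-204436 (adjusted p = 0.12 by edgeR) the libraries of DGRP_29652 had 5 counts with the suffix and 1 without it. DGRP_25193 had 5 counts and DGRP_25194 had 4, while the highest line, DGRP_25185, reached 3.82 log2 CPM. These 3 lines had line means of -0.69, -0.09 and -0.31, and the next line stood at 1.49.

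In the same edgeR fit, single lines were compared with the average over the remaining 22. The p-values were adjusted over regions within each line, and not over the lines together. With the component as a covariate, 64 of 5681 pairs of a line and a region passed on chromosome 4. That was 1.13%, against 1.14% of all such pairs. Without the covariate 6 pairs passed, or 0.106%, against 0.139% of all pairs. Besides DGRP_25185 at chr4:566024-566981, they were DGRP_29652 at chr4:204086-204436 (log2 change -3.66, adjusted p = 0.0121), DGRP_28243 at chr4:452543-452935 (2.41, adjusted p = 0.0162), DGRP_28123 at chr4:46552-46857 (1.70, adjusted p = 0.0295), DGRP_28123 at chr4:1181015-1181752 (-2.16, adjusted p = 0.0381) and DGRP_28265 at chr4:1272168-1272764 (1.84, adjusted p = 0.0449). DGRP_28123 had 3.54 log2 CPM with the suffix and 3.95 without it at chr4:46552-46857, where the other line means ended at 3.12. At chr4:1181015-1181752 it had 3.20 and 2.46, and only DGRP_29651, with 1.83, was lower.

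**Figure D4:**
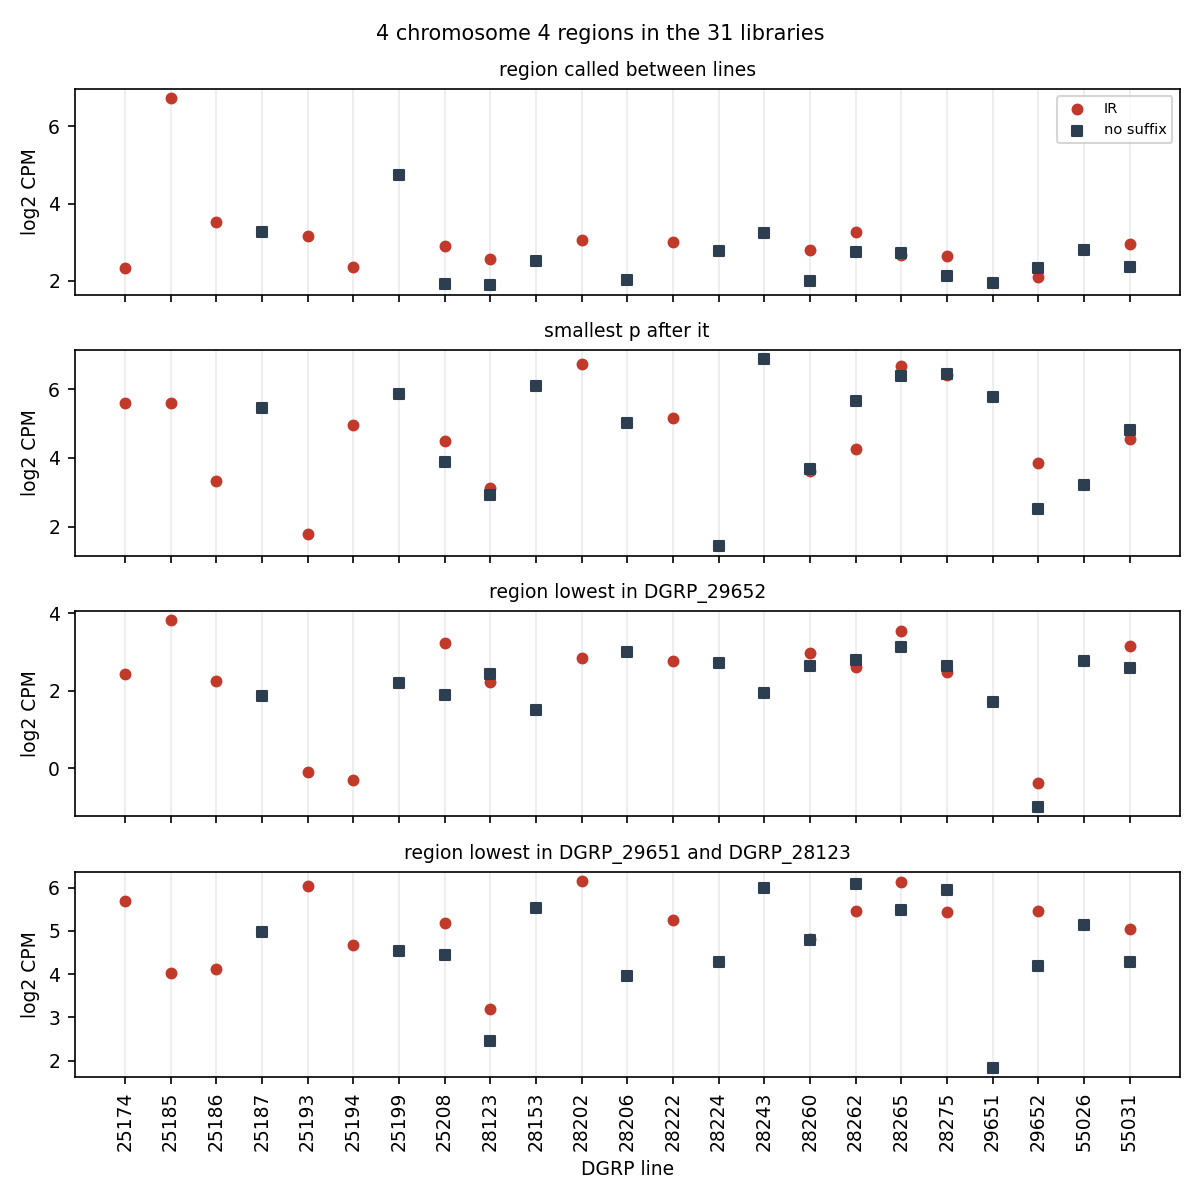
Log2 CPM of 4 regions in each of 31 libraries, by DGRP line; circles are IR libraries and squares libraries without the suffix. From the top they are chr4:566024-566981, chr4:1272168-1272764, chr4:204086-204436 and chr4:1181015-1181752; DGRP_25185 stands alone in the first, at 6.73, and DGRP_29652 is at or below -0.37 in the third.

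The profile of a line over chromosome 4 was tested for repeatability. The deviations of its 2 libraries from the means of their suffix groups correlated over the 247 regions at 0.097 on average, and pairs from different lines at -0.018 (exact permutation of the pairings, one-sided, p = 0.243). The correlations of the 8 lines ran from -0.52 in DGRP_28260 to 0.59 in DGRP_28275. With the first principal component removed, the averages were 0.44 and -0.063 (exact permutation p = 2.48e-05, the smallest possible), and the 8 lines ran from 0.24 to 0.62.

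That component was followed by part of the chromosome. With its score, 37 regions of chromosome 4 fell and 50 rose (edgeR, adjusted p under 0.05), where 23.1% and 22.8% of all regions did. For all other arms the score was built from the same counts, so these shares are not on equal terms. Over the range of the score, by the fitted slope, 29 regions of chromosome 4 fell at least 2-fold, or 11.7%, and 15 fell at least 4-fold, against 21.9% and 12.4% of all regions. The regions that fell most were neighbours: chr4:104662-104909 by 4.18 log2 units, chr4:103789-104181 by 3.96, chr4:105499-105939 by 3.38 and chr4:107978-108270 by 3.14. At chr4:104662-104909 the libraries ran from -0.92 log2 CPM, with a median of 1.30, to 3.87 in the library of DGRP_55031 without the suffix. Other regions with a wide range over the libraries were chr4:627995-628606 (from 3.03 to 5.93 log2 CPM) and chr4:833793-834502 (from 2.88 to 5.33). Judged by the spread between lines, both were among the 5 most variable of the regions at or above the median level. At chr4:627995-628606 the line means ran from 3.22 in DGRP_28206 to 5.55 in DGRP_29651. Libraries of 1 line could lie far apart there: DGRP_28260 had 5.29 with the suffix and 3.03 without it. Those of DGRP_28275 lay close, at 4.93 and 4.87.

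Regions close together varied together. The correlation of line means averaged 0.318 over the 38 pairs of chromosome 4 regions within 1000 bp of each other, against 0.429 on the arms, and it was 0.0694 between 100000 and 500000 bp, against 0.0202 on the arms. The points share libraries and lines, and these are descriptions with no test.

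The comparison of IR libraries with those without the suffix, within the 8 lines that have both, called 1 region higher with the suffix (edgeR's quasi-likelihood test with line as a block, adjusted p under 0.05), where 0.0293% of the 30710 tested regions passed. None was called lower by edgeR. Without adjustment 15 regions were higher and 14 lower at p under 0.05, where 9.56% and 7.46% of all regions were. DESeq2 called 5 regions, where 3.63% of all regions passed, and edgeR with the component as a covariate 6, where 4.44% passed. The median log2 change on chromosome 4 was 0.049, against -0.035 on the arms and -0.16 on X.

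The called region was chr4:930571-931431. It had 4.09 log2 CPM at the lowest, 5.02 at the median and 5.69 at the highest in the IR libraries, against 3.00, 3.86 and 4.60 in those without the suffix. It was higher with the suffix in 8 of 8 lines, by 0.70 in DGRP_28260 to 1.71 in DGRP_29652 (log2 change 1.18, SE of the paired differences 0.118, edgeR adjusted p = 0.0286). The ranges of the groups overlap, while every pair differs in the same direction. With 1 line left out in turn, the fits called 1 region of the whole genome, or 3 without DGRP_28260, against 9 with all 8 lines. Without any 1 line other than DGRP_28260 the call at this region was lost, in 7 of 8 fits (edgeR, adjusted p up to 0.121), with log2 changes from 1.12 to 1.23. Its neighbour chr4:933782-934400 ran from 3.95 with a median of 4.67 to 5.50 in the IR libraries, against 3.08, 3.34 and 3.96 in the others, and was higher in 8 of 8 lines, although its adjusted p missed the threshold (log2 change 1.23, edgeR adjusted p = 0.0708). Over the 23 lines the 2 regions varied together (Pearson r = 0.94, Spearman rho = 0.93, permutation p = 1e-05 for both, adjusted p = 4e-05). Without the 2 farthest lines r was 0.88. Both regions were chosen for being higher with the suffix, and the line means were not corrected for it. A shared difference with the suffix therefore enters this correlation and its p-values, which permute the lines without regard to the suffix. The part of the suffix was not tested.

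Between them lies chr4:932070-932347, picked after its values were seen, which was also higher with the suffix in 8 of 8 lines (log2 change 0.81, edgeR adjusted p = 0.187). It had 1 count in the IR library of DGRP_25208 and 0 in the other one, so that this line stood far below all others there. Over chromosome 4 these 3 regions, or 1.21%, were higher in 8 of 8 lines, against 4.18% of all regions.

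**Figure D5:**
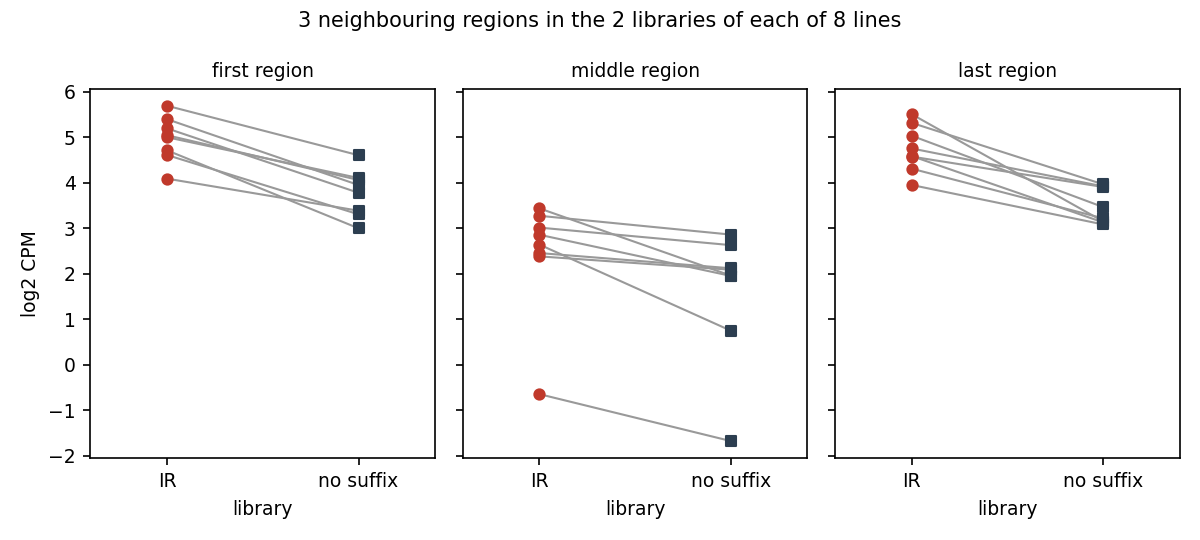
Log2 CPM of 3 neighbouring regions in the IR library and the library without the suffix of each of 8 lines, joined by a grey line. From the left they are chr4:930571-931431, chr4:932070-932347 and chr4:933782-934400; each of the 8 lines is higher with the suffix in all 3, and the lowest pair in the middle panel is DGRP_25208.

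The regions with the smallest p in each direction were looked up in the 15 lines with 1 library, which that test did not use. All 8 had the same sign there, and 4 passed an exact permutation test over the 6435 splits of 7 IR libraries and 8 without the suffix (two-sided, adjusted over 8 tests). Such agreement was common: of all regions with an unadjusted paired p under 0.05, 89.2% had the same sign there and 33.6% also had an exact p under 0.05. On chromosome 4 it was 26 of 29 and 12 of 29, so chromosome 4 is not set apart by this count. Lower in the IR libraries were chr4:432206-433008, with 4.85 ± 0.32 against 5.43 ± 0.28 log2 CPM (exact permutation p = 0.00249, adjusted p = 0.00995), and chr4:827520-829102, with 6.80 ± 0.22 against 7.17 ± 0.26 (exact permutation p = 0.00839, adjusted p = 0.0224). Higher in the IR libraries were chr4:1047569-1047998, with 4.91 ± 0.16 against 4.52 ± 0.20 (exact permutation p = 0.00186, adjusted p = 0.00995), and chr4:933782-934400, with 4.61 ± 0.56 against 3.81 ± 0.55 (exact permutation p = 0.0118, adjusted p = 0.0236). Values are means ± SD, n = 7 and 8. In the 8 paired lines, the component as a covariate changed the log2 change from -0.72 to -0.55 at chr4:432206-433008. It went from -0.54 to -0.35 at chr4:827520-829102, from 0.51 to 0.44 at chr4:1047569-1047998 and from 1.23 to 1.08 at chr4:933782-934400. The part of the component in the suffix differences was not tested.

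In the 15 lines with 1 library, chr4:930571-931431 had 4.79 ± 0.51 in IR libraries, against 4.07 ± 0.77 without the suffix (exact permutation p = 0.0572, adjusted p = 0.0915, n = 7 and 8). At chr4:736130-736500, chr4:296958-297311 and chr4:715774-716385 the differences were -0.20, -0.095 and 0.092 log2 units, and the exact permutation p was 0.185, 0.743 and 0.479 (n = 7 and 8). In these libraries each line has 1 kind only, so line and suffix cannot be told apart. In a bulk disc, a lower count from fewer open cells and a lower count from every cell cannot be told apart either.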

How the data were processed

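ATAC-seq libraries of 31 DGRP eye-antennal disc samples were analysed; the other 15 samples of the series were not used here. The table holds raw read counts per merged peak region, as the authors deposited it. Bowtie2, featureCounts, MACS2 and DESeq2 are listed, with build dm3, in the submitters' processing notes. Versions, duplicate removal, treatment of reads that map to several places and any shift for the transposase cut are not given in the sources used here. A line is a group; the 2 libraries of 8 lines are paired by line. Lengths are end minus start.

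Counts were scaled with TMM in edgeR 4.0.16 (R 4.3.3); log2 CPM used a prior count of 2. Regions needed a CPM worth 10 counts at the median library in at least 2 libraries. Lines and the suffix were tested with edgeR's quasi-likelihood test, adjusted over all tested regions, with DESeq2 1.42.0 and limma 3.58.1 voom as alternatives. The tests ran on simulated data first. Ratios, deviations and correlations were compared over lines by permutation (scipy, 100000 resamples, or exact). At 28 regions of chromosome 4 a library had under 5 counts, and both counting error and the spread between libraries limit their precision.

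Regions named in the text are the 5 highest and 5 lowest by CPM per kb, the 5 smallest p between lines, the 5 largest SD of line means at or above the median level, the 4 smallest p in each suffix direction, the longest and shortest, the ends, those beside the 2 widest gaps, and those that passed a test. The regions, lists and comparisons were chosen with earlier results of these data known. The comparison in the 15 lines with 1 library, the weighting by level class, the region between the suffix pair and the neighbours that fell with the component were added after values were seen.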

Additional observations from a re-analysis of the deposited data

How the results depend on the processing

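The count of chromosome 4 regions called between lines by edgeR was 1, where 29 of all 30773 tested regions passed. It was 2 when only library totals scaled the counts, where 50 of 30773 passed, and 2 above a mean count of 50 (61 of 21758). With the suffix left out of the model it was 2 (69 of 30773), and in the 16 paired libraries 4 (357 of 30710). DESeq2 called 15 (1697 of 30773), limma voom 17 (2588 of 30773) and edgeR with the first principal component as a covariate 24 (3205 of 30773). At an adjusted p of 0.01 edgeR called 0 (1 of 30773), with 19 regions of chromosome 4 at an unadjusted p under 0.05. Leaving out 1 library in turn gave 0 to 1, where 0 to 41 of all regions passed. Single-line calls numbered 64 with the component as a covariate (1.13% of pairs, against 1.14% of all), in place of 6 (0.106%, against 0.139%). Regions called with the suffix numbered 2 when only totals scaled the counts, where 16 of all 30710 passed, and 2 above a mean count of 50 (19 of 20294). They numbered 5 with DESeq2 (1114 of 30710), which gave no adjusted p for 54 regions of chromosome 4, and 6 with the component (1362 of 30710). At an adjusted p of 0.01 edgeR called 0 (1 of 30710), with 29 unadjusted. Without the replicate block, that is without pairing the libraries by line, the suffix test called 2 (142 of 30710). Leaving out a line gave 0 to 1, where 1 to 3 of all regions passed, with an edgeR adjusted p of 0.0483 to 0.121 at chr4:930571-931431. The log2 ratio of chromosome 4 to the arms was -0.011 with median counts, -0.024 per kb and -0.018 as a mean of counts per kb, and none of these passed; without 1 library it ran from -0.14 to -0.13. The suffix difference of that ratio turned to 0.087 with median counts and ran from -0.083 to 0.0058 (without DGRP_28275) when 1 line was left out; without the replicate block its p was 0.669. The excess of own-line correlation was 0.50 with the component removed and 0.033 to 0.25 without 1 line, passing without DGRP_28260 (exact permutation p = 0.00694). The causes were not tested. Low counts and the spread between libraries limit the precision of the low regions.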
